A study of Sus scrofa with 6 samples.

Results

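The Iroquois genes IRX3, IRX4 and IRX5 and the core cardiac transcription factor genes GATA4, NKX2-5, TBX5, TBX20, HAND1, HAND2 and MEF2C were examined in porcine ventricular myocardium. These 10 genes were matched by symbol among the 13288 genes listed, and all 10 were found and passed the filter that left 11029 genes for comparison. The set was chosen on a measured value, the higher FPKM of IRX5 in the constricted hearts, so the difference between the groups is given for the 10 genes as a description, with no P for any of them. FPKM is the number of fragments scaled by gene length and by the fragments of the library. It can be compared between genes only as far as the gene lengths and the handling of shared reads allow. Neither is given in the sources used here.

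RNA was taken from ventricular tissue of male Tibetan minipigs after thoracotomy, either without constriction (sham group, n = 3, replicates 1 to 3) or with descending aortic constriction (DAC group, n = 3, replicates 4 to 6). The study used this surgery as a model of chronic pressure overload with a preserved ejection fraction, and the tissue was collected at the end of its follow-up. Each library came from 1 minipig, and neither the ages nor the ventricle that was sampled for sequencing are given in the sources used here. The labels name no allele, transgene or drug treatment in either group.

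Iroquois proteins are homeodomain transcription factors that are encoded in clusters, and in the heart they help to set regional differences between chambers, across the ventricular wall and in the conduction system. IRX4 is known as a ventricle-restricted factor, IRX3 for its role in the ventricular conduction network, and IRX5 for the gradient of repolarizing current across the ventricular wall. GATA4 is a zinc finger factor, NKX2-5 a homeodomain factor, TBX5 and TBX20 are T-box factors, HAND1 and HAND2 are basic helix-loop-helix factors, and MEF2C is a MADS-box factor. These factors bind one another and control shared cardiac genes during heart development and in the adult myocardium.

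The summed FPKM was between 281377 and 308771 per sample, which does not tell how many reads lie behind a value. The mitochondrially encoded genes made up 24.0% to 25.3% of this sum in the sham samples, 27.1% and 27.2% in DAC replicates 6 and 4, and 32.8% in DAC replicate 5. MYL2, the ventricular myosin light chain, was between 4149 and 5033 FPKM in the 6 samples, while the atrial light chain MYL4 was between 0.780 and 17.6 FPKM. The ventricular heavy chain MYH7 was between 1781 and 1935 FPKM, so the defining markers of ventricular muscle were high in every library. In bulk tissue, fewer cells of a type and less RNA per cell cannot be told apart.

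IRX5 was the member whose DAC and sham values did not overlap. IRX5 (ENSSSCG00000032145, Sscrofa11.1 chromosome 6 from 30511894 to 30515097, minus strand) was at 6.48, 15.4 and 6.45 FPKM in sham replicates 1 to 3. In DAC replicates 4 to 6 it was at 24.9, 19.2 and 19.8 FPKM. Every DAC value lay above every sham value, and sham replicate 2 stood apart from the other two sham samples. The sham mean was 9.44 ± 5.15 FPKM (SD, n = 3), and the DAC mean was 21.3 ± 3.13 FPKM (SD, n = 3). The difference in mean log2(FPKM + 1), called the log2 fold change from here on, was 1.19 with a standard error of 0.31. It lay between 1.001 and 1.57 when 1 sample was left out in turn, the highest value being that without sham replicate 2.

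IRX3 (ENSSSCG00000002831, chromosome 6 from 31046098 to 31048822, plus strand), the Iroquois factor of the ventricular conduction network, was the more abundant gene of this cluster. It was at 33.7, 34.0 and 23.0 FPKM in the sham replicates and at 39.1, 25.2 and 38.6 FPKM in the DAC replicates. The groups overlapped, because DAC replicate 5 lay below sham replicates 1 and 2. The log2 fold change of IRX3 was 0.17 with a standard error of 0.22, and leaving out 1 sample gave values from -0.0072 (sham replicate 3 left out) to 0.37 (DAC replicate 5 left out). The FPKM of IRX5 relative to that of IRX3 in the same sample was 0.192, 0.453 and 0.280 in the sham replicates and 0.636, 0.763 and 0.513 in the DAC replicates. IRX5 thus stayed below IRX3 in all 6 samples, and the ratio was higher in each DAC sample than in any sham sample. As IRX5 was chosen for being higher with DAC, the ratio adds nothing to that difference.

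IRX4 (ENSSSCG00000017112, chromosome 16 from 78940313 to 78944268, plus strand), the ventricle-restricted Iroquois factor, had a mean that was lower with DAC. Its sham values were 17.1, 11.9 and 6.60 FPKM, and its DAC values were 7.92, 9.16 and 6.64 FPKM. The sham values spread over the whole DAC range, and sham replicate 3 was the lowest of the 6. The log2 fold change of IRX4 was -0.45 with a standard error of 0.30. Leaving out sham replicate 1 gave -0.16 and leaving out sham replicate 3 gave -0.79, so that its size depended on which sham samples entered.

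**Figure D1:**
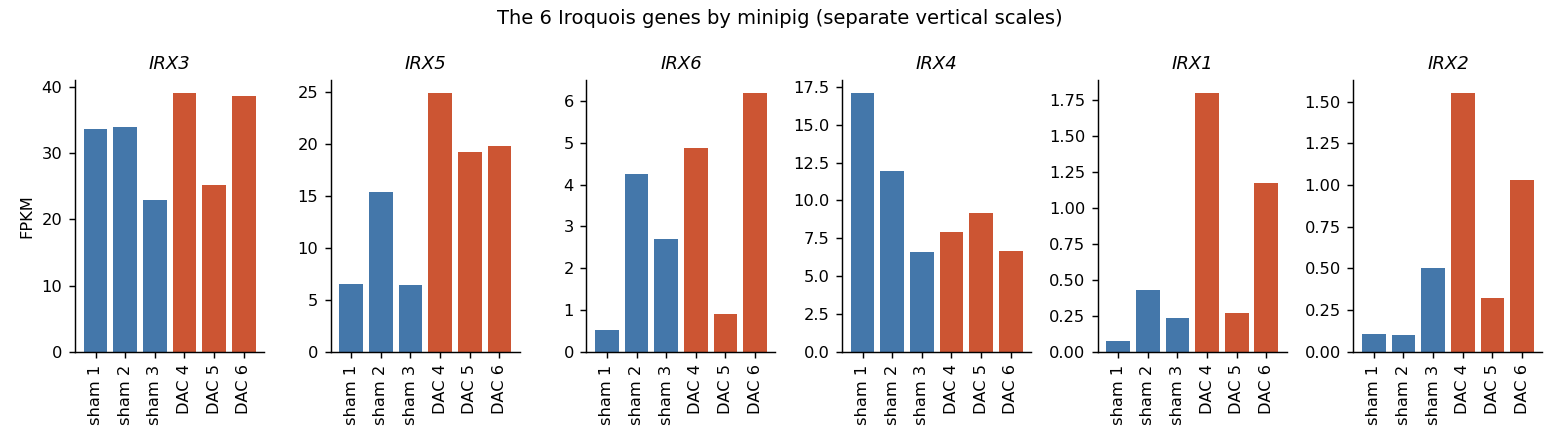
FPKM (vertical axis, from 0, a separate scale for each gene) of the 6 Iroquois genes in each minipig, 1 bar per sample, with sham in blue and DAC in red. IRX5 is at 19.2 FPKM or more in the 3 DAC samples and at 15.4 FPKM or less in the 3 sham samples, whereas the groups of the other 5 genes overlap.

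The other Iroquois genes were not members of the set and were far less abundant. IRX6 (ENSSSCG00000002830), the third gene of the cluster on chromosome 6, was at 0.519, 4.26 and 2.69 FPKM in the sham replicates and at 4.89, 0.893 and 6.20 FPKM in the DAC replicates. Its log2 fold change was 0.48 with a standard error of 0.61, and it was not called (adjusted P = 0.842 from limma with Benjamini-Hochberg adjustment). IRX1 (ENSSSCG00000034884), which lies near IRX4 on chromosome 16, was at 0.0717, 0.432 and 0.237 FPKM in the sham replicates and at 1.80, 0.267 and 1.17 FPKM in the DAC replicates. IRX2 (ENSSSCG00000032074), of the same cluster, was at 0.105, 0.103 and 0.501 FPKM in the sham replicates and at 1.55, 0.323 and 1.03 FPKM in the DAC replicates. IRX1, IRX2 and IRX6 shared a pattern in the DAC group, with DAC replicates 4 and 6 high and DAC replicate 5 within the sham range. Of the 5 listed atrial markers, the light chain gene MYL4 was also high in DAC replicates 4 and 6, at 2.03, 3.79 and 1.08 FPKM in the sham replicates and at 9.22, 0.780 and 17.6 FPKM in the DAC replicates. SLN, which encodes sarcolipin, was at 0.278, 1.01 and 0.403 FPKM in the sham replicates and at 1.44, 0.932 and 9.83 FPKM in the DAC replicates, high mainly in DAC replicate 6. KCNJ3, a potassium channel gene and the most abundant of the 5, was at 24.8, 19.9 and 26.5 FPKM in the sham replicates and at 24.0, 22.3 and 21.7 FPKM in the DAC replicates, inside the sham range. NR2F2 was between 3.58 and 6.87 FPKM and NR2F1 was below 1 FPKM in all samples, and the part of atrial RNA in the Iroquois values was not tested. IRX1 and IRX2 reached 1 FPKM in 2 samples each and were left out of the comparison. With no filter, their log2 fold changes were 0.67 (standard error 0.29, adjusted P = 0.620) and 0.64 (standard error 0.26, adjusted P = 0.618). Both then passed the threshold of the study, with unadjusted P of 0.0488 for IRX1 and 0.0401 for IRX2 from limma. That fit called 1057 of 13288 genes. The highest sample of every listed gene lay above a lower bound, which is given with the processing. All sham values of IRX1 lay below this bound, so IRX1 is listed only through its DAC values. In the sham group IRX2 reached the bound in replicate 3 alone, at 0.501 FPKM. Nothing is therefore read from the P of either gene.

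GATA4 (ENSSSCG00000022383, chromosome 14 from 14858159 to 14939941, plus strand), the zinc finger factor, was at 37.2, 33.6 and 30.7 FPKM in the sham replicates and at 33.9, 25.5 and 31.0 FPKM in the DAC replicates. NKX2-5 (ENSSSCG00000036285, chromosome 16 from 51086011 to 51089165, plus strand), the cardiac homeodomain factor, was at 84.0, 63.0 and 75.0 FPKM in the sham replicates and at 62.3, 50.2 and 70.3 FPKM in the DAC replicates. The mean of both genes was lower with DAC, and in both the groups overlapped. The log2 fold change was -0.17 for GATA4 with a standard error of 0.14. It was -0.28 for NKX2-5 with a standard error of 0.16. Neither changed sign when 1 sample was left out, with a range of -0.25 to -0.055 for GATA4 and of -0.39 to -0.15 for NKX2-5.

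The T-box genes had near equal means in both groups. TBX5 (ENSSSCG00000009867, chromosome 14 from 37773605 to 37824400, plus strand) was at 24.3, 21.9 and 22.1 FPKM in the sham replicates and at 25.5, 18.1 and 25.5 FPKM in the DAC replicates. The sham mean of TBX5 was 22.8 ± 1.29 FPKM (SD, n = 3), its DAC mean was 23.0 ± 4.25 FPKM (SD, n = 3), and the DAC samples lay on both sides of the sham range. TBX20 (ENSSSCG00000016662, chromosome 18 from 38635617 to 38677208, plus strand) was at 56.0, 35.6 and 36.7 FPKM in the sham replicates and at 54.4, 31.0 and 51.8 FPKM in the DAC replicates. In TBX20 the spread within each group was wide, with sham replicate 1 and DAC replicates 4 and 6 above 50 FPKM and the other 3 samples below 40. The log2 fold changes were 0.00063 for TBX5 (standard error 0.15) and 0.083 for TBX20 (standard error 0.26).

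HAND2 (ENSSSCG00000031537, chromosome 14 from 16460119 to 16462735, plus strand) was the most abundant of the 10 genes, at 133, 104 and 124 FPKM in the sham replicates and at 140, 105 and 122 FPKM in the DAC replicates. Its relative HAND1 (ENSSSCG00000031080, chromosome 16 from 68677963 to 68683342, plus strand) was at 14.0, 13.7 and 10.6 FPKM in the sham replicates and at 15.1, 9.57 and 11.6 FPKM in the DAC replicates. The groups overlapped for both genes. The log2 fold changes were 0.024 for HAND2 (standard error 0.15) and -0.088 for HAND1 (standard error 0.18). The FPKM of HAND2 was between 7.59 and 11.6 times that of HAND1 in the 6 samples. MEF2C (ENSSSCG00000014149, chromosome 2 from 96122407 to 96296842, minus strand), the MADS-box factor, was at 17.0, 18.2 and 17.9 FPKM in the sham replicates and at 21.8, 11.99 and 19.7 FPKM in the DAC replicates. All sham values of MEF2C lay inside the DAC range, and its log2 fold change was -0.031 with a standard error of 0.21.

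**Figure D2:**
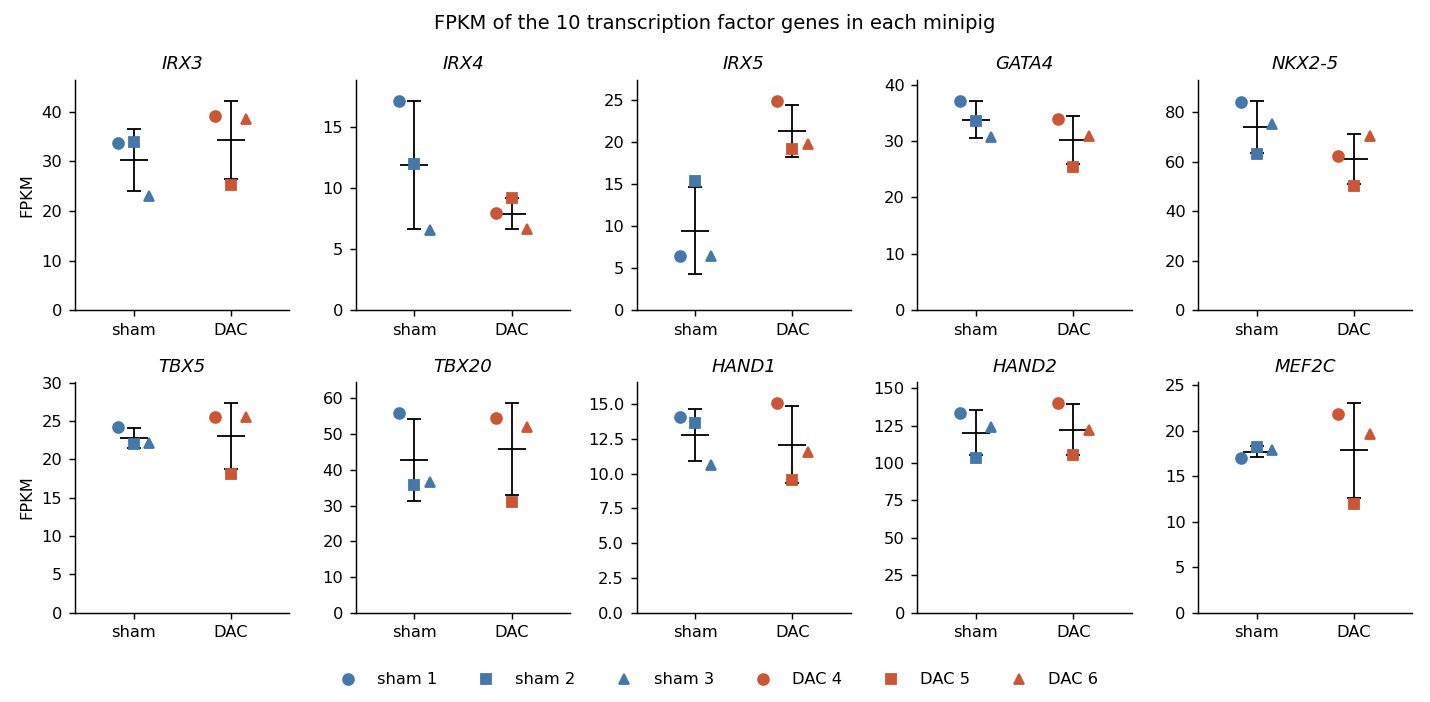
FPKM (vertical axes, from 0) of the 10 transcription factor genes, with 1 point per minipig, the mean as a horizontal line and the SD as the error bar (n = 3 per group). Marker shape tells the samples of a group apart. The groups are separate for IRX5 and overlap for the other 9 genes, and DAC replicate 5 (square) is the lowest DAC sample in 9 of the 10 panels.

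Of the 10 genes, 5 had a higher and 5 a lower mean log2 value with DAC. Their median log2 fold change was -0.015, beside -0.016 over all genes tested, and its sign depended on the samples and the scaling, since 6 of the 15 alternatives gave a positive median. Leaving IRX5 aside, the 9 log2 fold changes lay between -0.45 for IRX4 and 0.17 for IRX3, and the standard errors of the 10 genes lay between 0.14 and 0.31. The threshold of the study, a P under 0.05, was applied here to the unadjusted P from limma, a test that the study does not name. By it, 8.51% of all genes tested were called (3.25% higher and 5.27% lower in the DAC group). Of all genes tested, 6.01% had every DAC value above every sham value, and 8.91% had every DAC value below. IRX5 was the member of the first kind, and there was none of the second kind. Since the set was chosen on this contrast, nothing is read from these counts. No gene of the table reached an adjusted P under 0.05 from limma, where 939 had an unadjusted P under 0.05, and the smallest adjusted P was 0.106.

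**Figure D3:**
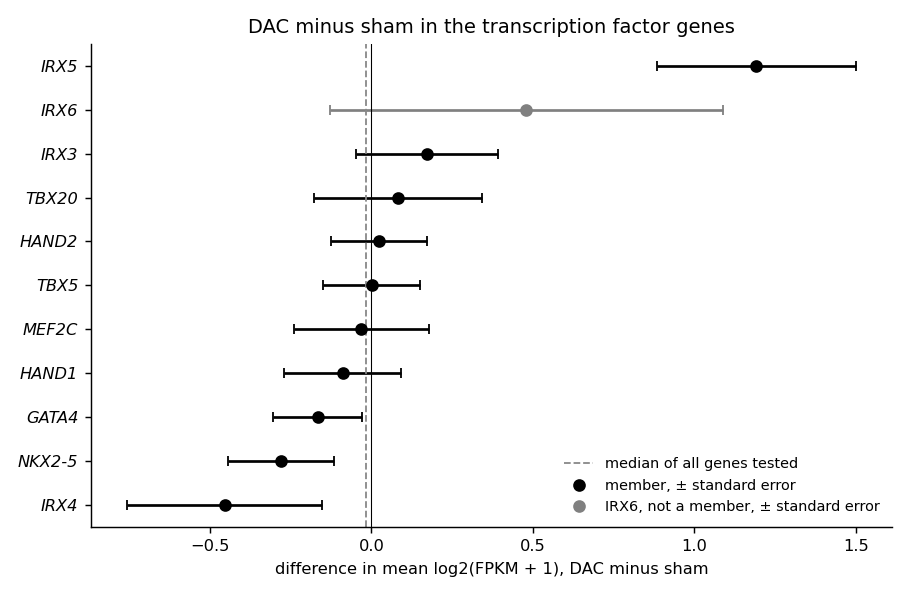
Difference in mean log2(FPKM + 1) between the DAC and the sham group (horizontal axis) for the 10 genes and IRX6, with bars of 1 standard error on either side of the point. The value of IRX5 is 1.19, and the other 9 members lie between -0.45 and 0.17, around the median of all genes tested (dashed line).

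The order of the levels was HAND2, NKX2-5, TBX20, IRX3, GATA4, TBX5, MEF2C, IRX5, HAND1 and IRX4 by the mean FPKM over all 6 samples, from 121 FPKM for HAND2 to 9.90 FPKM for IRX4. HAND2 lay above 98.1% of the listed genes and IRX4 above 72.0%. The range of HAND2 was separate from that of NKX2-5 over all 6 samples. NKX2-5 exceeded TBX20, TBX20 exceeded IRX3, GATA4 exceeded TBX5 and TBX5 exceeded MEF2C in 6 of 6 samples each, although the ranges over the 6 samples overlapped. IRX3 and GATA4 did not differ beyond their spread, with IRX3 above GATA4 in 3 of 6 samples. The place of IRX5 depended on the group, which follows from the difference on which it was chosen. In the sham group all its values lay below those of MEF2C and overlapped those of HAND1, whereas in the DAC group its range overlapped that of MEF2C and lay above that of HAND1.

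The variation between minipigs was not the same for all members. The coefficient of variation in the sham group was 54.6% for IRX5 and 44.3% for IRX4, and 3.32% for MEF2C and 5.66% for TBX5, beside a median of 12.2% over all genes tested. In the DAC group it was 14.7% for IRX5 and 15.9% for IRX4, and 29.0% for MEF2C and 28.1% for TBX20, beside a median of 14.7% over all genes tested. DAC replicate 5 was the lowest DAC sample for 9 of the 10 members, IRX4 being the exception, and was so for 39.8% of all genes tested. It was the lowest of all 6 samples for GATA4, NKX2-5, TBX5, TBX20, HAND1 and MEF2C. This sample had the largest share of mitochondrially encoded FPKM. With the mitochondrial genes removed and the remaining values rescaled, DAC replicate 5 was again the lowest DAC sample for 9 members, and the IRX5 values were 6.42, 15.1 and 6.32 in the sham replicates and 25.7, 19.6 and 19.7 in the DAC replicates. The rescaling moved DAC replicate 5 little, with NKX2-5 at 50.2 FPKM before and 51.2 after, so it could hardly change the order of the DAC samples. The part of the mitochondrial share and of other features of this sample in the low values was not tested.

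Markers of other cell types were summed to see what moved with IRX5. For fibroblasts, 10 of 10 markers were listed, and their summed FPKM was 582 to 670 in the sham samples and 796 to 923 in the DAC samples, without overlap. Of these, 4 (COL1A1, COL1A2, COL3A1 and LUM, which encode collagens I and III and the matrix proteoglycan lumican) were called higher in the DAC group, each without overlap. PDGFRA, DCN, TCF21, FBLN1, MFAP5 and DPT were not called, and the groups of each overlapped. DCN, the most abundant of the uncalled markers, was at 152, 139 and 158 FPKM in the sham replicates and at 99.8, 150 and 218 FPKM in the DAC replicates. The epicardial and mesothelial markers, of which 3 of 7 were listed, summed to 13.1 to 18.2 FPKM in the sham samples and 10.9 to 11.5 FPKM in the DAC samples. WT1 alone carried this difference, since the sum of the other two, ALDH1A2 and TBX18, was 6.26 to 8.39 FPKM in the sham and 6.61 to 9.15 FPKM in the DAC samples. The sums of 9 of 12 cardiomyocyte markers (13611 to 14887 in the sham and 12976 to 16001 in the DAC samples) overlapped between the groups, with RYR2 called lower. So did those of 10 of 10 endothelial markers (155 to 215 and 136 to 204), where KDR and EMCN were called higher and CLDN5 and VWF lower, and of 9 of 9 smooth muscle and pericyte markers (195 to 228 and 218 to 243), where CNN1 was called higher. The sums also overlapped for 5 of 10 atrial markers (28.7 to 33.2 and 30.6 to 56.3), 7 of 10 leukocyte markers (44.0 to 46.6 and 35.7 to 48.8, with CD163 called lower), 5 of 7 adipocyte markers (39.3 to 48.3 and 32.2 to 45.2) and 3 of 6 Schwann and neuronal markers (3.03 to 3.66 and 2.30 to 4.28). For skeletal muscle, 0 of 8 markers were listed. Markers without a listed value were not analysed here. The part of fibroblast and epicardial RNA in the IRX5 values was not tested.

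IRX3, IRX5 and IRX6 lie in 1 cluster, with 531001 bases between IRX3 and IRX5 and 306359 between IRX5 and IRX6. The listed genes within 1000000 bases of IRX3 or IRX5 numbered 15 without the members and with IRX6, and 12 were tested. Of these, 0 were called by limma at an unadjusted P under 0.05, beside 8.51% of all genes tested. Their median log2 fold change was -0.017. Of the 12, 3 had every DAC value above every sham value (FTO, CHD9 and MMP2), beside 6.01% of all genes tested, and AKTIP had every DAC value below, beside 8.91%. FTO, which encodes an RNA demethylase and is the nearest listed protein-coding neighbour of IRX3, was at 9.42, 8.99 and 8.997 FPKM in the sham replicates and at 9.99, 9.56 and 10.1 FPKM in the DAC replicates, a log2 fold change of 0.10 with a standard error of 0.093. MMP2, which encodes a matrix metalloproteinase, was at 23.9, 25.3 and 28.3 FPKM in the sham replicates and at 30.0, 28.4 and 36.4 FPKM in the DAC replicates. Its log2 fold change was 0.28 with a standard error of 0.13 (unadjusted P = 0.068 and adjusted P = 0.596 from limma). MMP2 was thus not called here, whereas the study reported it as increased in its sequencing.

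A long non-coding gene without a symbol, ENSSSCG00000047270, lies 1840 bases from IRX5 on the opposite strand (chromosome 6 from 30516937 to 30572591, plus strand). It was at 0.285, 0.399 and 0.251 FPKM in the sham replicates and at 1.81, 0.713 and 0.611 FPKM in the DAC replicates, so that every DAC value lay above every sham value. It reached 1 FPKM in 1 sample and was therefore not tested with the filter. With no filter its log2 fold change was 0.59 with a standard error of 0.22 (unadjusted P = 0.0278 and adjusted P = 0.594 from limma). The unadjusted P passes the threshold of the study, in a fit that called 1057 of 13288 genes. All sham values of this gene lay below the lower bound on the highest sample of listed genes. It is thus listed only through its DAC values. Its separation of the groups and its P partly follow from this, and nothing is read from them. Its annotated position does not overlap that of IRX5, and how the strand of a read was used is not given in the sources used here.

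Around IRX4, 19 listed genes without the member lay within 1000000 bases, and 15 were tested. The mean was lower with DAC for 14 of the 15, beside 53.4% of all genes tested, with a median log2 fold change of -0.14 beside -0.016. Of the 15, 1 was called lower, beside 5.27% of all genes tested, and these neighbours were not tested as a group. This was SDHA, which encodes the flavoprotein subunit of succinate dehydrogenase, at 113, 109 and 111 FPKM in the sham replicates and at 89.98, 87.6 and 98.3 FPKM in the DAC replicates. SDHA had a log2 fold change of -0.27 with a standard error of 0.096 (adjusted P = 0.553 from limma). Its call was lost in 5 of 15 alternatives, which were quantile normalization and the fits without sham replicate 1, 2 or 3 or DAC replicate 5. The FPKM of IRX5 relative to IRX4 in the same sample was 0.378, 1.29 and 0.977 in the sham replicates and 3.14, 2.10 and 2.98 in the DAC replicates. IRX5 exceeded IRX4 in every DAC sample, whereas in the sham group it did so in replicate 2 alone. This ratio too carries the difference on which IRX5 was chosen.

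Other transcription factors of the heart were taken as a list of 36 genes, of which 30 were tested. Of these, 3 were called higher and 1 lower with DAC, and their median log2 fold change was -0.025. WT1, a zinc finger factor of the epicardium and of vascular cells, was at 4.76, 10.3 and 11.4 FPKM in the sham replicates and at 2.36, 2.49 and 4.30 FPKM in the DAC replicates. For WT1 the log2 fold change was -1.23 with a standard error of 0.32 (adjusted P = 0.482 from limma). ETV1, an ETS factor of fast-conducting myocardium, was at 1.22, 3.22 and 1.93 FPKM in the sham replicates and at 5.21, 3.45 and 5.28 FPKM in the DAC replicates. As in IRX5, sham replicate 2 was the highest sham sample of ETV1 and DAC replicate 5 the lowest DAC sample. In IRX5, however, DAC replicates 5 and 6 lay close together, at 19.2 and 19.8 FPKM. DAC replicate 5 was the lowest DAC sample for 39.8% of all genes tested. The log2 fold change of ETV1 was 0.89 with a standard error of 0.25 (adjusted P = 0.5001 from limma).

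TBX18, a T-box factor of the epicardium and the sinus node, was at 1.78, 1.59 and 1.40 FPKM in the sham replicates and at 3.38, 2.81 and 2.03 FPKM in the DAC replicates. Its log2 fold change was 0.52 with a standard error of 0.16 (adjusted P = 0.511 from limma). MEF2A, the paralogue of MEF2C, was at 30.3, 30.2 and 28.8 FPKM in the sham replicates and at 40.7, 33.3 and 36.2 FPKM in the DAC replicates. For MEF2A the log2 fold change was 0.29 with a standard error of 0.11 (adjusted P = 0.563 from limma), and its call was lost in 5 of 15 alternatives, the fits without sham replicate 1, 2 or 3 or DAC replicate 4 or 6. ZBTB16 was the fifth by P and was not called, with a log2 fold change of -0.34 (adjusted P = 0.596 from limma). WT1 and TBX18 are also 2 of the 3 listed epicardial markers and went in opposite directions. GATA6, the other GATA factor of the myocardium, was named after its values were seen, and was at 79.2, 54.8 and 45.4 FPKM in the sham replicates and at 47.3, 73.4 and 47.8 FPKM in the DAC replicates, with overlap of the groups.

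Among partners and co-regulators of the core factors, 28 of 32 genes were tested, 1 was called higher and 0 were called lower, with a median log2 fold change of 0.018. TCF12, a class I basic helix-loop-helix protein that can pair with HAND proteins, was at 5.69, 5.97 and 5.32 FPKM in the sham replicates and at 7.15, 6.99 and 7.75 FPKM in the DAC replicates. For TCF12 the log2 fold change was 0.32 with a standard error of 0.10 (adjusted P = 0.522 from limma), and its position overlaps that of 2 listed genes without a symbol. Its call was lost without sham replicate 3 or DAC replicate 6. The next genes by P were not called, with log2 fold changes of 0.25 for TRPS1, 0.30 for TCF4, -0.18 for RXRA and 0.24 for SMARCD3.

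Of 38 genes reported in the literature as targets of these factors, 30 were tested, of which 1 was called higher and 1 lower, with a median log2 fold change of -0.053. NPPB, the gene of B-type natriuretic peptide, was at 15.5, 43.9 and 43.4 FPKM in the sham replicates and at 80.6, 93.3 and 107 FPKM in the DAC replicates. NPPB had a log2 fold change of 1.55 with a standard error of 0.38 (adjusted P = 0.482 from limma). RYR2, the calcium release channel of the sarcoplasmic reticulum, was at 424, 293 and 380 FPKM in the sham replicates and at 308, 234 and 279 FPKM in the DAC replicates. The groups of RYR2 overlapped, its log2 fold change was -0.41 with a standard error of 0.17 (adjusted P = 0.585 from limma), and its call was lost in 7 of 15 alternatives. These were quantile normalization, the fit without mitochondrially encoded genes, the variance of each gene on its own, and the fits without sham replicate 1 or 3 or DAC replicate 5 or 6. The next genes by P were not called, with log2 fold changes of -0.24 for CKM, -0.22 for MYL3 and 0.45 for ACTC1. KCNIP2, which encodes a subunit of the transient outward potassium channel linked to IRX5, was named after its values were seen. It was at 161, 164 and 185 FPKM in the sham replicates and at 188, 102 and 169 FPKM in the DAC replicates, with a log2 fold change of -0.20 and a standard error of 0.23 (adjusted P = 0.821 from limma).

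Genes of the conduction system numbered 18, of which 9 were tested, including IRX3 itself. Of these, 2 were called higher and 0 were called lower, and ETV1 was one of the called genes. The median log2 fold change was 0.17, which is the value of the member IRX3. RCAN1, which is best known as a regulator of calcineurin, was the other, at 13.7, 14.4 and 11.6 FPKM in the sham replicates and at 58.8, 18.9 and 45.0 FPKM in the DAC replicates. RCAN1 had a log2 fold change of 1.42 with a standard error of 0.38 (adjusted P = 0.488 from limma). TBX3, a T-box repressor of the conduction system, was at 5.56, 3.98 and 3.50 FPKM in the sham replicates and at 10.005, 3.32 and 10.3 FPKM in the DAC replicates. DAC replicate 5 lay below the sham range of TBX3 while the other DAC samples lay above it, and TBX3 was not called (log2 fold change 0.62, standard error 0.37, adjusted P = 0.661 from limma). GJA5, which encodes connexin 40, was at 3.33, 5.67 and 5.18 FPKM in the sham replicates and at 6.03, 3.98 and 7.24 FPKM in the DAC replicates, with a log2 fold change of 0.23 (adjusted P = 0.791 from limma). Over the 4 lists, 13.3% of the tested genes were called among the other factors and 3.57% among the partners. The share was 6.67% among the targets and 22.2% (2 of 9) among the conduction genes, beside the 8.51% of all genes tested. ETV1 counts in both the other factors and the conduction genes. The lists were chosen with earlier results of these data known, so nothing is read from these shares.

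**Figure D4:**
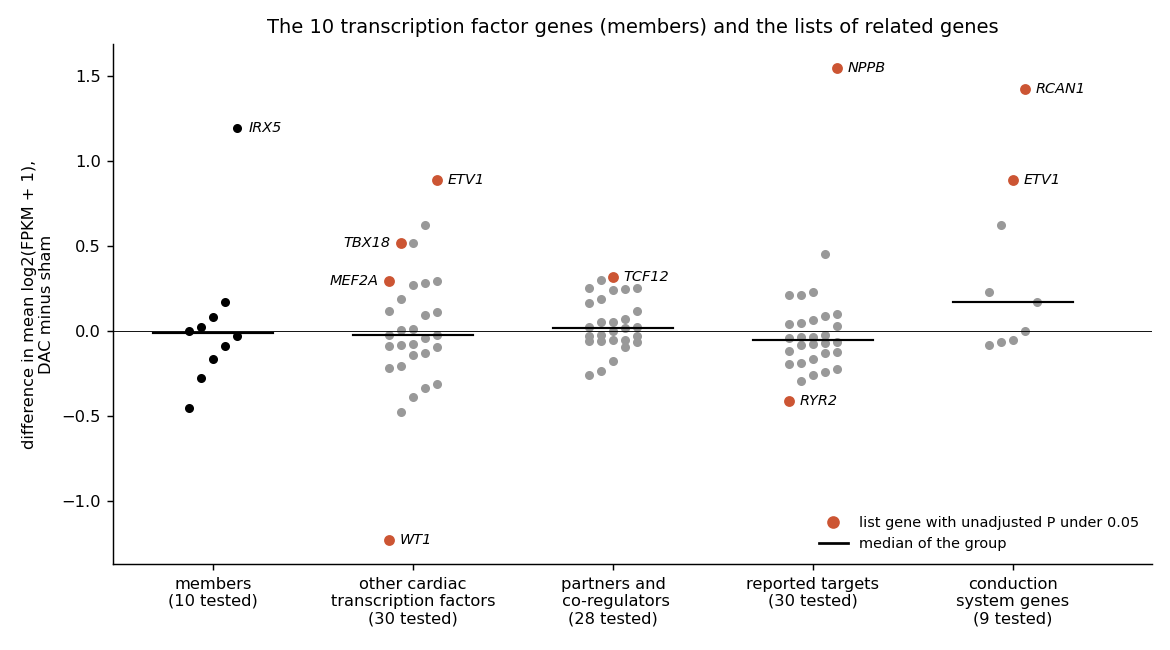
Difference in mean log2(FPKM + 1) between the DAC and the sham group (vertical axis) for each tested gene of the 10 members and of the 4 lists, with the median of each as a horizontal bar and list genes with an unadjusted P under 0.05 in red and named. The medians lie between -0.053 and 0.17, the highest being that of the conduction genes, which is the value of IRX3. NPPB (1.55), RCAN1 (1.42), IRX5 (1.19) and WT1 (-1.23) lie farthest from 0.

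Only tested genes with a symbol were ranked by how closely their log2(FPKM + 1) followed that of IRX5. The closest over the 6 samples were EDEM3 (Pearson's r = 0.998), CCDC50 (0.993), FRMD4B (0.991), THOC7 (0.990) and TTC5 (0.989). These r values describe 6 samples that share the difference between the groups, and 117 tested genes with a symbol had an r over 0.9. The log2 fold changes of these genes were smaller than that of IRX5, at 0.11 for EDEM3, 0.12 for CCDC50, 0.43 for FRMD4B, 0.28 for THOC7 and 0.19 for TTC5. FRMD4B, for example, was at 4.31, 6.16 and 4.32 FPKM in the sham replicates and at 7.74, 6.33 and 6.71 FPKM in the DAC replicates, and shared with IRX5 the high value of sham replicate 2. After the group means were subtracted, the closest genes were VPS9D1 (r = 0.997), ARGLU1 (0.996), EDEM3 (0.992), ZNF227 (0.989) and ANXA4 (0.989). By this measure, 143 tested genes with a symbol had an r over 0.9. None of the other Iroquois or core factor genes was among the 5 closest by either measure.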

How the data were processed

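The authors deposited FPKM values of ventricular myocardium, 1 column for each of 3 sham and 3 DAC minipigs. The library kit was NEBNext Ultra, reads were paired, and the submitters' processing notes name HISAT2 and the build susScr11. The quantifier, the annotation release and the handling of shared reads are not given in the sources used here. FPKM gives no read numbers, so precision rests on the spread between minipigs. The highest sample of each listed gene had at least 0.500 FPKM.

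Genes that reached 1 FPKM in 3 or more of the 6 samples were compared on log2(FPKM + 1) with limma 3.58.1 in R 4.3.3, with a variance trend, and P was adjusted by Benjamini-Hochberg over all genes tested. The fold change on this scale understates that of low genes. A gene was called at an unadjusted P under 0.05, as in the study. With 3 minipigs against 3, an exact two-sided permutation test cannot go below 0.1. The fit was tested on simulated data. Plots were drawn in Python 3.11.15 (matplotlib 3.10.9).

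The members and lists were chosen with earlier results of these data known. Named besides the members are the other Iroquois genes, the 5 genes of smallest P in each list, the genes within 1000000 bases of an Iroquois member, and the 5 genes most like IRX5. Symbols were missing for some genes, of which 520 were filled from a table of gene identifiers. Alternatives were other scalings, filters, a pseudocount of 0.1, variance of each gene on its own, and each sample left out. No batch is named in the labels.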

Additional observations from a re-analysis of the deposited data

How the results depend on the processing

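The log2 fold change of IRX5 was between 1.19 and 1.28 under the other scalings, filters and settings and between 1.001 and 1.57 with 1 sample left out. The median of the 10 members was between -0.018 and 0.043 and, with 1 sample left out, between -0.13 and 0.14, and it had the other sign in 6 of 15 alternatives. IRX4, GATA4 and NKX2-5 kept a lower mean in all 15, whereas the sign changed in 1 for IRX3 and HAND1, 2 for HAND2, 4 for TBX20 and MEF2C, and 5 for TBX5. The number of genes called was 939, and 579 with a minimum of 5 FPKM, where 165 were higher. With 1 sample left out it was between 595 (without sham replicate 1) and 1019, with 240 to 464 higher and 352 to 668 lower. The split of higher and lower calls was 358 and 581, and it was 429 and 478 after median scaling, 418 and 469 after quantile normalization, and 502 and 408 without mitochondrially encoded genes.

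A minimum of 5 FPKM gave 1 called gene among the other cardiac transcription factors and 1 among the conduction genes. Both counts fell because WT1, ETV1 and TBX18 did not pass that filter, while MEF2A and RCAN1 stayed called. The partners had 2 called genes after median scaling, 2 after quantile normalization, 3 without mitochondrially encoded genes and 3 with the variance of each gene on its own. The reported targets had 1 without mitochondrially encoded genes and 1 with the variance of each gene on its own. With 1 sample left out, the calls were 3 to 8 among the other factors, 0 to 3 among the partners, 1 to 4 among the targets and 2 to 3 among the conduction genes. WT1, ETV1 and TBX18 were called in all 14 alternatives that tested them, and NPPB and RCAN1 in all 15. The cause of the other changes in these counts was not tested. The groups were made up of separate minipigs, so the comparison was unpaired. Depth is unknown, so low genes such as IRX1 and IRX2 carry an unknown counting error.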
